A study of Mus musculus with 15 samples.

Results

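The 8 genes Clec7a, Clec4n, Clec4e, Clec4d, Clec4a1, Clec4a2, Clec4a3 and Clec12a encode C-type lectin receptors of the Dectin and Clec4 type. They were taken by symbol from a table of 40510 genes, 1 row for each gene. All 8 had enough reads to be tested, among 13284 genes that did. The cells were alveolar macrophages, phagocytes that live in the airspaces of the lung, lavaged from untreated C57BL/6 mice and profiled by RNA sequencing. The mice were wild type or carried a knockout of Cybb, the gene for the catalytic subunit NOX2 of the phagocyte NADPH oxidase, and serve as a model of chronic granulomatous disease (CGD). The cells had been sorted as CD45+ Ly6G- SiglecF+ CD11c+ and then divided by surface CD11b, the integrin chain that Itgam encodes. The 5 groups were CD11b-low cells of both genotypes at 4 weeks, CD11b-low cells of both genotypes at 12 weeks, and knockout CD11b-high cells at 12 weeks. Each group had 3 libraries, each library pooled 2 to 3 mice and about 50000 cells, and no wild-type CD11b-high cells were among the samples. The labels do not name the knockout allele.

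C-type lectin receptors bind sugars and lipids on fungi, bacteria and dying cells through a carbohydrate-recognition-like domain at the cell surface. Dectin-1, the product of Clec7a, binds fungal beta-glucan and signals through a tyrosine motif in its own tail to the kinase Syk and the adaptor Card9. Dectin-2 (Clec4n), Mincle (Clec4e) and the macrophage C-type lectin MCL (Clec4d) signal through the paired adaptor FcR gamma, the product of Fcer1g, and Mincle and MCL can form a complex. DCIR (Clec4a2) and MICL (Clec12a) instead carry an inhibitory tyrosine motif (ITIM) that recruits phosphatases. Clec4a3 and Clec4a1 encode the DCIR relatives also called DCIR3 and DCIR4. Dectin-1 is also known as a receptor that can switch on the NADPH oxidase, the enzyme that the knockout mice lack.

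Levels are given as CPM, the counts of a gene relative to the TMM-scaled size of its library. As a check of the labels, Cybb ranged from 899 to 2319 CPM over the 6 wild-type libraries and from 129 to 221 CPM over the 9 knockout ones, with no overlap. The libraries held 22856331 to 36458893 counts. Alveolar macrophage markers made up 60714 to 90429 CPM of every library, Siglecf was at 170 CPM or more in each CD11b-high library, and Ly6g had no counts in any library. Of these markers Chil3 alone had group means of 25741 to 52343 CPM. It stands in the list of monocyte markers too, so the sum is a weak check of identity. Itgam was at 60.2 ± 28.9 CPM in CD11b-high and 4.61 ± 1.58 CPM in CD11b-low knockout cells at 12 weeks (SD, n = 3). The 12-week wild-type libraries were uneven beyond the members. Their alveolar macrophage markers summed to 60714 to 83785 CPM, and the marker Abcg1 spanned 2316 to 8882 CPM. Among the members, single libraries of 12-week CD11b-low cells stood apart from their groups in Clec7a and Clec4d. Wild-type replicate 1 was low in Clec7a and high in Clec4d. Knockout replicate 3 was high in Clec7a and knockout replicate 1 was high in Clec4d. Differences called or described below that rest on these libraries are given without them or with the range over libraries left out. In these bulk samples fewer cells that express a gene and less RNA per cell cannot be told apart.

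All 8 genes lie on chromosome 6 (GRCm38, GENCODE M21). Of them, 6 lie in the Clec4 cluster, which holds further genes, in the order Clec4a1 (chr6:122921848-122934619), Clec4a3 (chr6:122952515-122969875), Clec4a2 (chr6:123106428-123143999), Clec4n (chr6:123229843-123247021), Clec4d (chr6:123262111-123275265) and Clec4e (chr6:123281789-123289870). Clec4e is on the minus strand and the others named here are on the plus strand. Clec4n and Clec4d are 15.1 kb apart, and Clec4d and Clec4e are 6.52 kb apart. Clec12a (chr6:129342691-129365303, plus strand) and Clec7a (chr6:129461591-129472779, minus strand) lie 6053 kb beyond the cluster and 96.3 kb from each other. The count table and GENCODE list Clec7a as a polymorphic pseudogene and the other members as protein coding. Clec4a2 shares 6.69% of its 50-base windows with other genes, among them Clec4a4 and Clec4b1, and overlaps the gene Gm44132 on the same strand, so its counts are less certain than those of the others. The shared part was 0.686% in Clec4n, 0.402% in Clec12a and 0 in the other 5 genes.

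Promoters were found for 7 of the 8 genes (all but Clec4n) in RefSeq on GRCm38.p6, as the 250 bases before and 50 after the start site. Printed are those of the 3 genes that were higher in 12-week CD11b-high knockout than in wild-type cells (Clec7a, Clec4e and Clec4d) and of 3 of the 4 that were lower (Clec4a2, Clec4a3 and Clec12a). Capitals mark the letters GAGGAA, the core bound by the macrophage factor PU.1, or TTCCTC, the same core read on the other strand. The regions are chr6:129472730-129473029 (minus strand) for Clec7a, chr6:123289822-123290121 (minus strand) for Clec4e, chr6:123261857-123262156 (plus strand) for Clec4d, chr6:123122440-123122739 (plus strand) for Clec4a2, chr6:122952265-122952564 (plus strand) for Clec4a3 and chr6:129349994-129350293 (plus strand) for Clec12a. The RefSeq starts of Clec4a2 and Clec12a lie inside the longer GENCODE genes.
Clec7a: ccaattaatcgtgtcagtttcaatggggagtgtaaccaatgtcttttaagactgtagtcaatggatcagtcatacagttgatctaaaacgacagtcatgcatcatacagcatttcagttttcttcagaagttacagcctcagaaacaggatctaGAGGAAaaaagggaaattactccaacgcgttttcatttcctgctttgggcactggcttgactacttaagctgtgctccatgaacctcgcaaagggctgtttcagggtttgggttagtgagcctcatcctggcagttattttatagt
Clec4e: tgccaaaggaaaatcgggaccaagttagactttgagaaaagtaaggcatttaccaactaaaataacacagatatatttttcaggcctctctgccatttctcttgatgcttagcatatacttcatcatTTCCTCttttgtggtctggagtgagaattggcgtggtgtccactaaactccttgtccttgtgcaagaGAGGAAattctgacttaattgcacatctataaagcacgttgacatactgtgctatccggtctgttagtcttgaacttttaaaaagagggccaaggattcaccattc
Clec4d: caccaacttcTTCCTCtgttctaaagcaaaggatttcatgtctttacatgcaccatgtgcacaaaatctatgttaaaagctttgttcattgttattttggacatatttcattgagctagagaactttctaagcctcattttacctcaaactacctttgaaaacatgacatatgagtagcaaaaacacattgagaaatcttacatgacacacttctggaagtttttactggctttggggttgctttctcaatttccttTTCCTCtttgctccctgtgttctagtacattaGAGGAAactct
Clec4a2: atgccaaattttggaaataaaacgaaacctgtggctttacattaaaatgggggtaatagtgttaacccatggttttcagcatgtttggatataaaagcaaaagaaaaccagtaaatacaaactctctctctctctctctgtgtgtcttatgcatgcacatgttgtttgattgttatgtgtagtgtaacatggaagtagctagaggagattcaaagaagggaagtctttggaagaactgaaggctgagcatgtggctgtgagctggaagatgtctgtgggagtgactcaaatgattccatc
Clec4a3: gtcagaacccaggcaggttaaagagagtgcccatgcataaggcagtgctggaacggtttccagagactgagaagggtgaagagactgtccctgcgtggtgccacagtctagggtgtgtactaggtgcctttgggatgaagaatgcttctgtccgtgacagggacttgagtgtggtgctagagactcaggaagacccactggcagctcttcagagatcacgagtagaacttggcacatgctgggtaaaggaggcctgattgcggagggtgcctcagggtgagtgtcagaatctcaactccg
Clec12a: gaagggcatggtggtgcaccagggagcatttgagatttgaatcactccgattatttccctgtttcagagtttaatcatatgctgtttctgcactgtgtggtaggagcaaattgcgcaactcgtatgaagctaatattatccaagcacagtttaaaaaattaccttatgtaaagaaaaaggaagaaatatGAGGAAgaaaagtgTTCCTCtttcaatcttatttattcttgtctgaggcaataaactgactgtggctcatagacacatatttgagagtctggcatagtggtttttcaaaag
GAGGAA occurred on either strand in 28.3% of all 27025 RefSeq promoters of this length. It occurred in 5 of the 7 lectin promoters, those of Clec7a, Clec4e, Clec4d, Clec4a1 and Clec12a, and not in those of Clec4a2 and Clec4a3. Relative to the start site, the match began at position -96 in Clec7a, at -123 and -56 in Clec4e, at -240, 8 and 40 in Clec4d, at -217 and -187 in Clec4a1 and at -61 and -47 in Clec12a. The AP-1 motif TGANTCA was in the promoters of Clec4a2 and Clec12a, against 7.93% of all promoters. The C/EBP motif TTGCNNAA was in those of Clec4e and Clec12a, against 10.8%. The E-box CACGTG (7.24% of all) and the NF-kappaB motif (4.35%) were in none of the 7. All motifs were searched on both strands, and matches of different motifs were counted separately even where they overlapped. A match describes these letters only and is not evidence of binding.

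Among the activating receptors, Clec7a was the most abundant member by CPM in 12-week knockout cells. It stood at 1195, 1516 and 1031 CPM in the wild-type and 1379, 1083 and 1013 CPM in the knockout libraries at 4 weeks (replicates 1, 2 and 3). At 12 weeks it stood at 696, 2422 and 2173 CPM in wild-type and 1994, 2152 and 4118 CPM in CD11b-low knockout libraries. CD11b-high knockout libraries had 4385, 4057 and 5199 CPM. Both 4-week groups overlapped, the 12-week CD11b-low groups overlapped, and the CD11b-high libraries overlapped the CD11b-low knockout libraries only through replicate 3 of the latter. Wild-type replicate 1 at 12 weeks was below every 4-week library.

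Clec4n, which encodes Dectin-2, had another pattern. It stood at 827, 1011 and 762 CPM in wild-type and 886, 851 and 852 CPM in knockout cells at 4 weeks. At 12 weeks its level was 1844, 2428 and 1879 CPM in wild-type and 1455, 1224 and 1751 CPM in CD11b-low knockout cells. It was 1079, 998 and 880 CPM in CD11b-high knockout cells. The 3 groups of 12 weeks did not overlap, with wild-type cells highest and CD11b-high cells lowest, and the CD11b-high libraries lay in the range of the 4-week libraries or just above it. Per kilobase of exon, Clec4n was the highest member in wild-type cells at 12 weeks (1444 CPM per kb, against 669 for Clec7a). Clec7a was the highest in CD11b-high knockout cells (1724 CPM per kb, against 694 for Clec4n), and in CD11b-low knockout cells the values were 1044 for Clec7a and 1040 for Clec4n.

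Clec4e and Clec4d, which encode Mincle and MCL, were much less abundant. Clec4e stood at 22.4, 38.8 and 25.4 CPM in wild-type and 31.0, 32.6 and 25.2 CPM in knockout cells at 4 weeks. At 12 weeks it was at 38.8, 50.6 and 54.0 CPM in wild-type, 101, 109 and 135 CPM in CD11b-low knockout and 122, 145 and 132 CPM in CD11b-high knockout cells. All 6 knockout libraries of 12 weeks were above all wild-type libraries of either age, and the CD11b-low and CD11b-high knockout ranges overlapped. Clec4d stood at 10.5, 14.0 and 8.89 CPM in wild-type and 10.8, 11.8 and 11.2 CPM in knockout cells at 4 weeks. At 12 weeks it was at 56.4, 25.5 and 21.2 CPM in wild-type, 83.1, 42.4 and 53.7 CPM in CD11b-low knockout and 114, 90.4 and 81.3 CPM in CD11b-high knockout cells. Every 12-week library was above every 4-week library. Wild-type replicate 1 lay inside the CD11b-low knockout range, and the CD11b-high range met the CD11b-low one only at its lower end.

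Among the genes of DCIR and its relatives, Clec4a2 stood at 174, 222 and 232 CPM in wild-type and 179, 192 and 198 CPM in knockout cells at 4 weeks. At 12 weeks it was at 400, 362 and 316 CPM in wild-type, 198, 198 and 212 CPM in CD11b-low knockout and 131, 157 and 107 CPM in CD11b-high knockout cells. The 12-week groups did not overlap, with wild-type cells highest, and CD11b-low knockout cells stayed in the range of the 4-week libraries. Clec4a3 stood at 370, 444 and 468 CPM in wild-type and 419, 435 and 442 CPM in knockout cells at 4 weeks. It was at 603, 663 and 634 CPM in wild-type, 399, 509 and 490 CPM in CD11b-low knockout and 288, 358 and 241 CPM in CD11b-high knockout cells at 12 weeks. Its 12-week groups had the same order as those of Clec4a2 and did not overlap either.

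Clec12a, the gene for the inhibitory receptor MICL, stood at 50, 62.0 and 60.1 CPM in wild-type and 70.5, 57.4 and 67.5 CPM in knockout cells at 4 weeks. At 12 weeks it was at 102, 142 and 114 CPM in wild-type, 103, 89.5 and 134 CPM in CD11b-low knockout and 75.8, 88.0 and 60.7 CPM in CD11b-high knockout cells. The wild-type and CD11b-low knockout ranges overlapped at 12 weeks, and the CD11b-high libraries were below both. Clec4a1 was the least abundant member and spanned 2.77 to 11.9 CPM over the 15 libraries (68 to 393 counts). The ranges of Clec4a1 overlapped between all 5 groups.

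**Figure D1:**
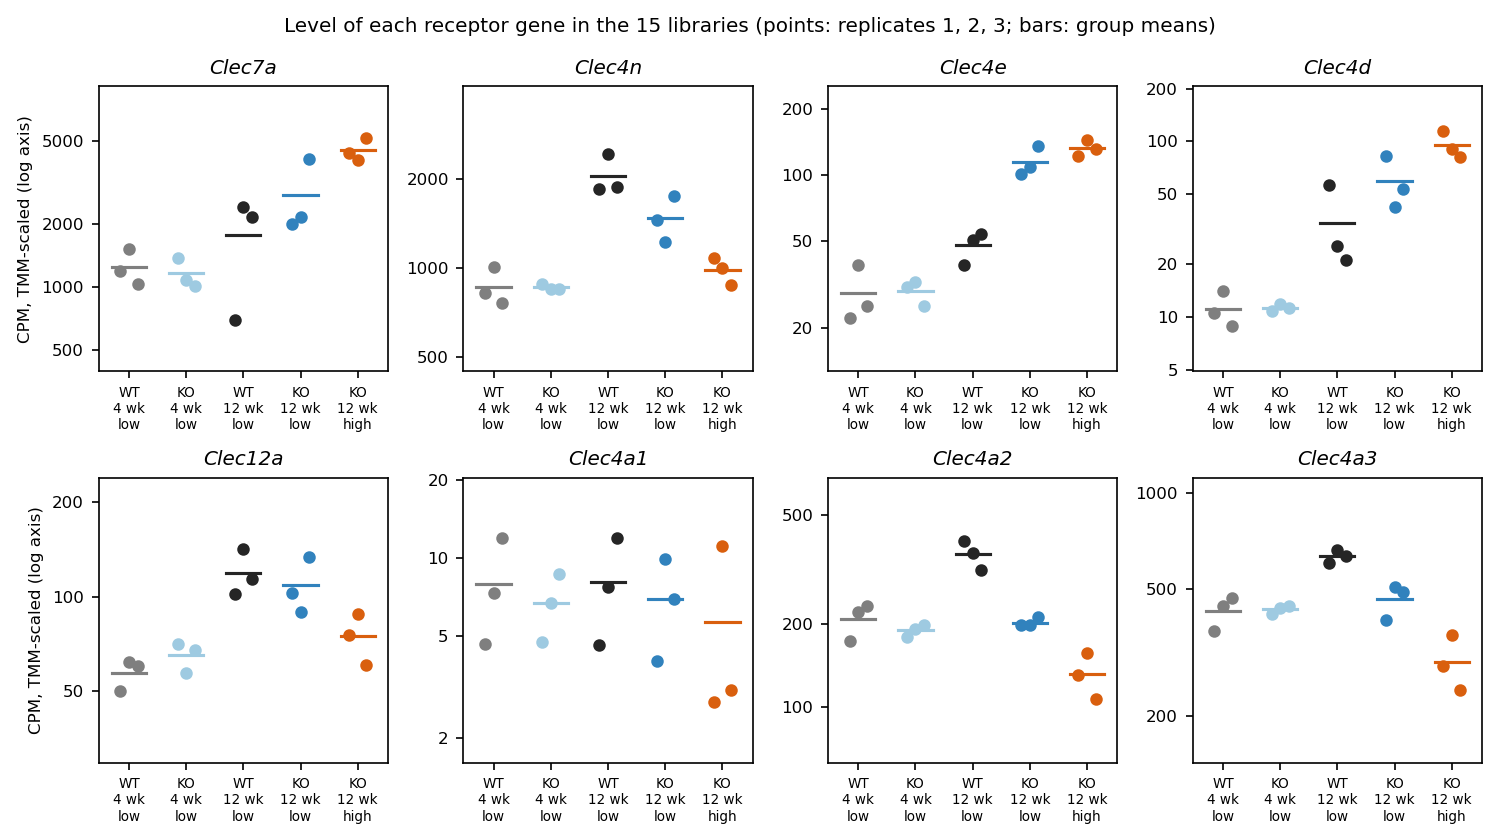
TMM-scaled CPM (log axis, a scale of its own in each panel) of the 8 receptor genes in the 15 libraries, by group (WT wild type, KO Cybb knockout, low and high for surface CD11b, wk weeks); points are replicates 1 to 3 from left to right and bars are group means. Clec7a, Clec4e and Clec4d have their highest group means in CD11b-high knockout cells, Clec4n, Clec4a2 and Clec4a3 theirs in 12-week wild-type cells.

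The first question was how CD11b-low macrophages of 12-week mice differ when NOX2 is missing. Clec4e was higher and Clec4a2 was lower in the knockout, and the other 6 genes did not pass the test. Clec4e, the Mincle gene, averaged 115 ± 17.9 against 47.8 ± 7.95 CPM (SD, n = 3), a log2 difference of 1.27 (SE 0.24, adjusted p = 0.00595 by edgeR's quasi-likelihood test with Benjamini-Hochberg adjustment). Clec4a2, the DCIR gene, averaged 203 ± 8.37 against 359 ± 41.8 CPM, a log2 difference of -0.83 (SE 0.21, adjusted p = 0.0365). Of all genes tested, 2.6% were called higher and 0.497% lower in the knockout, against 1 of the 8 members in each direction. The ranges of the 3 and 3 libraries were apart for 1 member in the higher direction (Clec4e), where 9.82% of all genes were, and for 3 members in the lower direction (Clec4n, Clec4a2 and Clec4a3), where 7.99% were. Clec4n differed by -0.47 on the log2 scale (adjusted p = 0.231) and Clec4a3 by -0.44 (adjusted p = 0.237). The median log2 difference was -0.18 over the 8 genes and -0.042 over all genes. Fitted on the 2 groups alone, Clec4e had the same difference with an adjusted p of 0.0914 and Clec4a2 one of 0.375. The Clec4a2 call was lost in 7 of 13 alternatives, among them leaving out any 1 of the 3 knockout replicates or wild-type replicate 1 or 2 (adjusted p between 0.0522 and 0.0974).

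Single libraries moved several of these values. Clec7a had a log2 difference of 0.64 (adjusted p = 0.335), which was 0.26 without wild-type replicate 1, 0.23 without knockout replicate 3 and at most 0.94 with any other library left out, none of them called. Clec4d had 0.80 (adjusted p = 0.19). Without wild-type replicate 1 it was called at 1.36 (adjusted p = 0.0199), and without knockout replicate 1 it was 0.48 and not called. Clec4e stayed called at 1.14 without wild-type replicate 1 (adjusted p = 0.0199), while Clec4a2 then had -0.74 (adjusted p = 0.0522). Clec4a1 and Clec12a differed by -0.21 and -0.14.

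At 4 weeks the same comparison called none of the 8 genes, where 0.0979% of all genes were called, and no member had an unadjusted p under 0.05 in edgeR (1.5% of all genes had) or a call in DESeq2 or limma voom. The log2 differences lay between -0.24 for Clec4a1 (SE 0.51) and 0.18 for Clec12a (SE 0.22). Clec4e had 0.04 (SE 0.23) and Clec4a2 -0.14 (SE 0.20), both smaller than their SE. Whether the genotype difference changed with age was tested as an interaction. It called 0 of 8 members, against 0.248% of all genes, and 2 members had an unadjusted p under 0.05, as had 8.3% of all genes. These were Clec4e at 1.23 (SE 0.33, adjusted p = 0.192 in edgeR, 0.0383 in DESeq2, which calls it) and Clec4a2 at -0.69 (SE 0.29, adjusted p = 0.531). The presence of a call at 12 weeks and its absence at 4 weeks was therefore not shown to be a difference between the ages by the edgeR test.

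CD11b-high knockout cells against CD11b-low wild-type cells of 12 weeks gave the widest split of the family, in a comparison that changes genotype and CD11b together. In it 3 activating receptor genes were higher and 4 genes were lower. Clec7a averaged 4547 ± 588 against 1764 ± 933 CPM, a log2 difference of 1.37 (SE 0.38, adjusted p = 0.0231). Clec4e (133 ± 11.5 CPM) and Clec4d (95.3 ± 17.0 CPM) both differed by 1.47, with adjusted p-values of 5.0e-04 and 0.00704. On the other side, Clec4a2 fell by 1.45 on the log2 scale (SE 0.21, adjusted p = 1.7e-04), Clec4a3 fell by 1.10 (SE 0.21, adjusted p = 0.00191) and Clec4n fell by 1.06 (SE 0.22, adjusted p = 0.00383). The gene for Dectin-2, an activating receptor, was thus on the same side as the DCIR genes. Clec12a was lower by a log2 difference of -0.68 with an adjusted p of 0.0491, a call that was lost in 10 of 13 alternatives, among them leaving out any CD11b-high replicate or wild-type replicate 2 or 3 (adjusted p between 0.0649 and 0.165). Of all genes, 9.23% were called higher and 5.6% lower here. This comparison shares its wild-type libraries with the one above.

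The Clec7a call in this comparison was lost without CD11b-high replicate 3 (log2 difference 1.26, adjusted p = 0.0672) and kept without wild-type replicate 1 (0.98, adjusted p = 0.0351). Without wild-type replicate 1 the difference of Clec4d was 2.02 (adjusted p = 3.2e-04). Fitted on the 2 groups alone, only Clec4e and Clec4a2 passed.

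Inside the knockout at 12 weeks, CD11b-high against CD11b-low cells called 0 of 8 members with edgeR, where 0.693% of all genes were called. Of the 8, 4 were lower with an unadjusted p under 0.05, as were 2.94% of all genes, and none was higher, as were 7.08% of all genes. DESeq2 called Clec4a3 (adjusted p = 0.0493). Those 4, Clec4n, Clec4a2, Clec4a3 and Clec12a, had log2 differences of -0.58, -0.62, -0.66 and -0.54, and each had all CD11b-high libraries below all CD11b-low libraries. The ranges were apart in the lower direction for 5.86% of all genes and in the higher direction for 7.91%, where no member was. Clec7a differed by 0.72 (SE 0.37), Clec4d by 0.67 (SE 0.33) and Clec4e by 0.21 (SE 0.23). Between same-numbered libraries, Clec7a and Clec4d were higher in CD11b-high cells in 3 of 3 pairs, as were 20.5% of all genes, and Clec4e in 2 of 3. Clec4n, Clec4a2, Clec4a3 and Clec12a were lower in 3 of 3 pairs, as were 17.8% of all genes. A fit with the replicate number as a block called no member either. Clec7a reached 1.13 without CD11b-low replicate 3 and Clec4d had 0.43 without CD11b-low replicate 2, both uncalled. Over all libraries left out in turn Clec4d lay between 0.43 and 0.98 and was not called. The CD11b-low libraries used here are the same ones that were compared with wild-type cells.

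**Figure D2:**
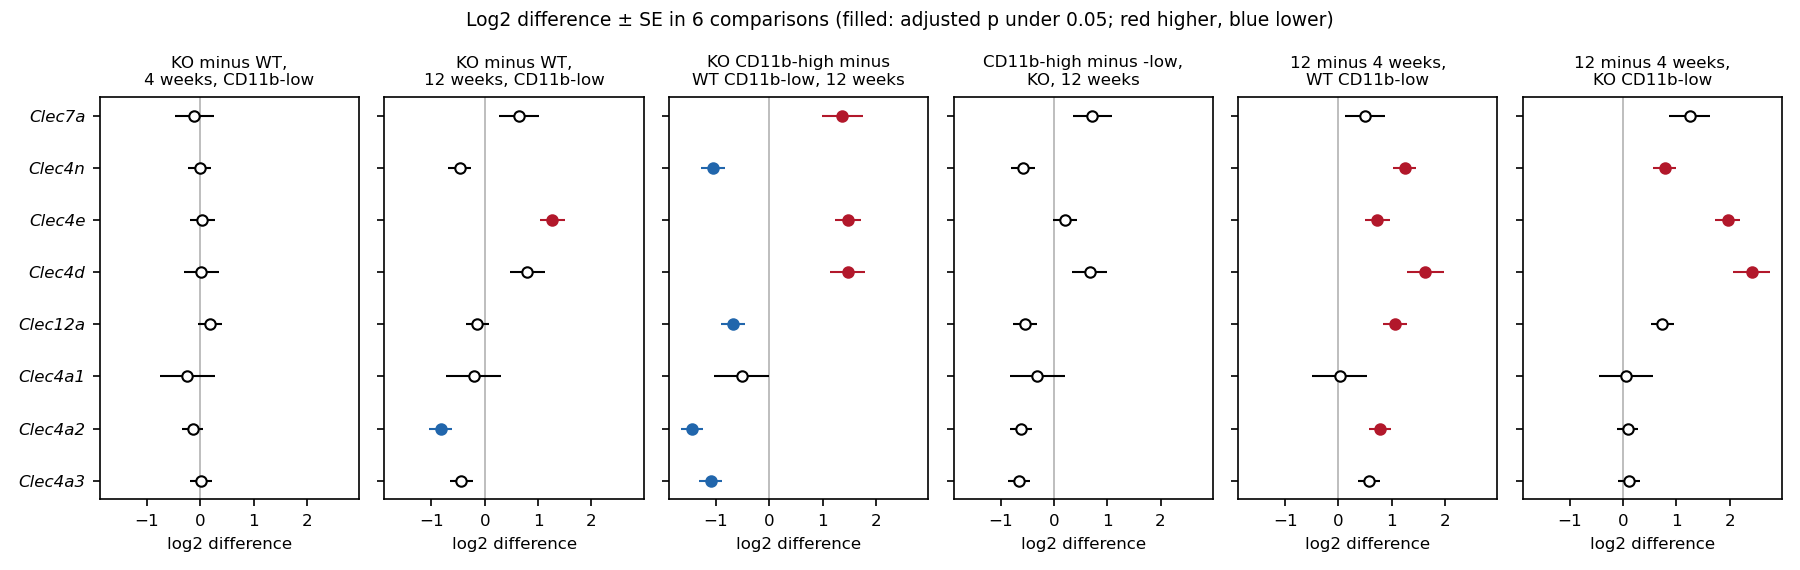
Log2 difference ± SE (horizontal axis) of the 8 receptor genes in 6 comparisons of groups of 3 libraries; filled points passed an adjusted p of 0.05 in edgeR, red higher and blue lower. No gene passed at 4 weeks or between the CD11b classes, 2 passed between genotypes at 12 weeks, and 7 passed between CD11b-high knockout and wild-type cells.

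How the receptors changed with age was addressed by 12-week against 4-week cells. In wild-type CD11b-low cells 5 members rose and none fell, where 8.79% of all genes were called higher and 8.39% lower. Clec4d rose from 11.1 ± 2.59 to 34.4 ± 19.2 CPM, a log2 difference of 1.63 (SE 0.34, adjusted p = 0.00564), and by 1.07 without replicate 1 of 12 weeks (adjusted p = 0.0136). Clec4n rose from 866 ± 129 to 2050 ± 327 CPM, a log2 difference of 1.24 (SE 0.22, adjusted p = 0.00368). Clec12a rose by 1.06 (adjusted p = 0.00608), Clec4a2 by 0.78 (adjusted p = 0.0159) and Clec4e by 0.73 (adjusted p = 0.041). The rises of Clec4e and Clec4a2 were lost in 7 and 4 of 13 alternatives. That of Clec4e was lost without replicate 2 or 3 of 12 weeks or replicate 1 or 3 of 4 weeks (adjusted p between 0.0998 and 0.179), and that of Clec4a2 without replicate 1 of 4 weeks (adjusted p = 0.0861). Clec4a3 had 0.57 (adjusted p = 0.0681) and Clec7a 0.50 (adjusted p = 0.384), and without wild-type replicate 1 of 12 weeks both passed, at 0.60 and 0.88. Without replicate 2 of 12 weeks Clec7a had 0.20 and was not called.

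In knockout CD11b-low cells 3 members rose with age and none fell, where 4.81% of all genes were called higher and 2.08% lower. Clec4d rose from 11.3 ± 0.544 to 59.7 ± 21 CPM, a log2 difference of 2.41 (SE 0.35, adjusted p = 5.2e-04). Leaving out 1 library gave 2.09 to 2.62 for Clec4d, and it stayed called each time. Clec4e rose from 29.6 ± 3.87 to 115 ± 17.9 CPM, a log2 difference of 1.96 (SE 0.24, adjusted p = 1.6e-04). The third was Clec4n, at 0.78 (SE 0.22, adjusted p = 0.0421), a call lost in 8 of 13 alternatives, among them leaving out replicate 1 or 3 of 12 weeks or any replicate of 4 weeks (adjusted p between 0.104 and 0.172). Clec7a had 1.25 (adjusted p = 0.0544) and Clec12a 0.74 (adjusted p = 0.0536), and both passed with DESeq2 and without replicate 2 of 12 weeks (adjusted p = 0.0388 and 0.0289). They passed in 5 and 4 of 13 alternatives. With any other library left out, including replicate 3 of 12 weeks, neither passed. Leaving out 1 library gave 0.84 to 1.43 for Clec7a and 0.56 to 0.86 for Clec12a. Clec4a2 and Clec4a3 had 0.09 and 0.11, and these signs turned to -0.24 and -0.22 when libraries were scaled by their totals. That scaling moved the median of all genes from -0.022 to -0.356 with age in the knockout and from -0.026 to -0.26 in the wild type, and the Clec4d and Clec4e rises in the knockout stayed called under it. The difference in age effect between the genotypes is the interaction given above. Markers of other cells moved with age in the knockout too: 10 of 12 T and NK cell, 7 of 15 dendritic cell, 3 of 15 monocyte, 3 of 10 neutrophil, 3 of 7 B cell and 1 of 4 eosinophil markers were called higher at 12 weeks. In wild-type cells 2 of 12 T and NK cell, 2 of 15 dendritic cell and 1 of 10 neutrophil markers were called higher. So was 1 of 9 lung epithelial markers (Epcam, log2 difference 2.79). All 7 erythroid markers, 1 neutrophil and 1 B cell marker were lower. Their part in the age results was not tested.

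Along the Clec4 cluster the differences split between neighbours. From Clec4a3 to Clec4n the 3 members had negative differences between CD11b-high knockout and wild-type cells (-1.10, -1.45 and -1.06). Clec4d, the next member 15.1 kb away, and Clec4e beyond it had positive ones (1.47 each). The same change of sign at the gap between Clec4n and Clec4d was present for CD11b-low knockout cells at 12 weeks (-0.47 against 0.80), where neither passed. With age in wild-type cells the differences of all 6 members in the cluster were positive, although that of Clec4a1 was 0.02 and turned with library totals (-0.22). Of the tested Clec4 neighbours that are not members, Clec4b1 had 1.40 and Clec4a4 had -0.12.

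**Figure D3:**
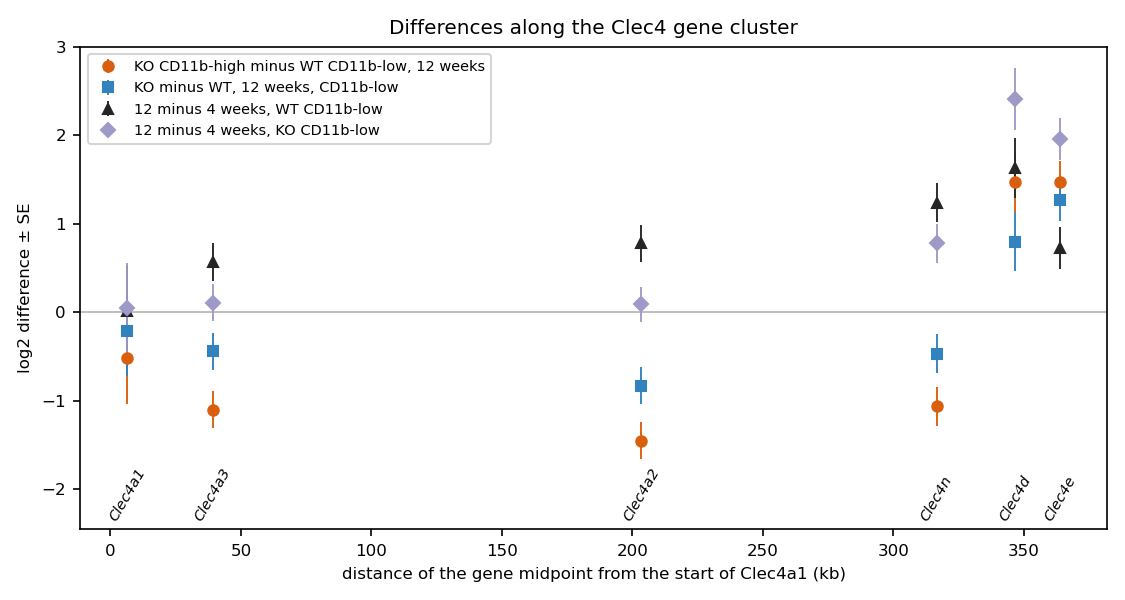
Log2 difference ± SE (vertical axis) of the 6 members in the Clec4 cluster against the distance in kb of each gene's midpoint from the start of Clec4a1, in 4 comparisons. Other genes of the cluster are not shown. In both 12-week comparisons with wild-type cells the sign changes between Clec4n and Clec4d; 12-week wild-type libraries are used in 3 of the comparisons and 12-week CD11b-low knockout libraries in 2.

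A ratio of counts inside a library needs no scaling between libraries, and ratios to Clec4n were chosen after the values above were seen. At 12 weeks Clec4n itself averaged 2050 CPM in wild-type, 1477 in CD11b-low knockout and 986 in CD11b-high knockout cells. That order alone raises any ratio to Clec4n from the first group to the last. By CPM, Clec7a overlapped between the CD11b-low groups. Clec4e counts per 100 Clec4n counts were 2.11, 2.08 and 2.87 in wild-type, 6.95, 8.93 and 7.73 in CD11b-low knockout and 11.3, 14.5 and 15 in CD11b-high knockout cells at 12 weeks. The 3 groups did not overlap. At 4 weeks the ratio was 2.71 to 3.84 in wild-type and 2.96 to 3.83 in knockout libraries, above 2 of the 3 wild-type values at 12 weeks. Clec7a counts per 100 Clec4n counts were 37.8, 99.8 and 116 in wild-type, 137, 176 and 235 in CD11b-low knockout and 407, 407 and 591 in CD11b-high knockout cells at 12 weeks, also without overlap. At 4 weeks the Clec7a ratio was 135 to 150 in wild-type and 119 to 156 in knockout libraries, above every 12-week wild-type library and overlapping the 12-week CD11b-low knockout libraries. For Clec4d the values were 3.06, 1.05 and 1.13 in wild-type and 5.71, 3.46 and 3.07 in CD11b-low knockout cells, where wild-type replicate 1 was just below the lowest knockout library, and 10.6, 9.06 and 9.24 in CD11b-high cells. At 4 weeks they were 1.17 to 1.38 in wild-type and 1.21 to 1.39 in knockout libraries. No test was run on these ratios.

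**Figure D4:**
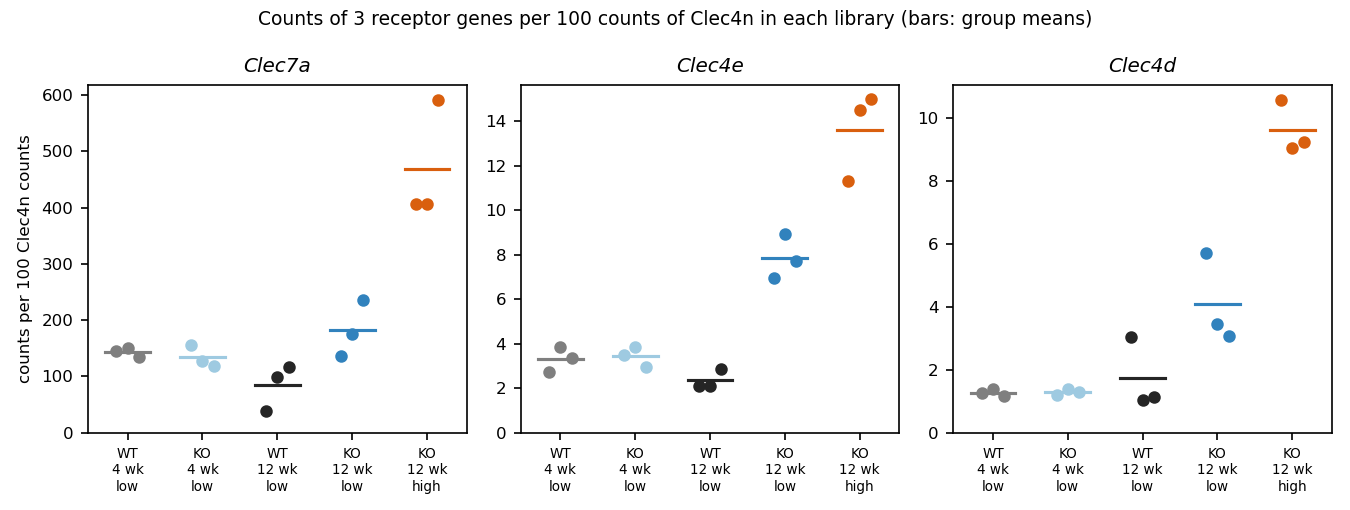
Counts of Clec7a, Clec4e and Clec4d per 100 counts of Clec4n (vertical axis, from 0) in each library by group, with bars at group means. The 3 CD11b-high knockout libraries are above all others in each panel, and both 4-week groups overlap.

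Several pairs of members moved together over the 15 libraries, as a description over libraries that share groups and age. No grouping of the members was computed. Pearson's r of log2 CPM was 0.95 between Clec4a2 and Clec4a3, 0.93 between Clec4n and Clec12a, 0.90 between Clec4e and Clec4d and 0.88 between Clec7a and Clec4e. It was -0.52 between Clec7a and Clec4a2 and 0.17 between Clec7a and Clec4n. Correlations also crossed these pairs, at 0.69 between Clec4n and Clec4a2, 0.66 between Clec4n and Clec4a3 and 0.59 between Clec4a3 and Clec12a. Among genes at 10 CPM or more in a group, those most like Clec7a were Sptssa (r = 0.977), Casp4 (0.946) and Ifi47 (0.935). Clec4n was closest to Cd2 (0.968), Rit1 (0.961) and Ndufs8 (0.956), and Clec12a to Pon3 (0.96), Cd2 (0.937) and Ppib (0.935). Clec4e was closest to Tnfrsf9 (0.965), Gng8 (0.956) and the T cell receptor component Cd3g (0.955). Clec4d was closest to Gabarapl1 (0.971), a gene near Clec7a, then Pf4 (0.969) and Fabp4 (0.967). Clec4a2 was closest to the alveolar macrophage ribonuclease genes Ear2 (0.974) and Ear1 (0.97) and to the cluster gene Clec4b1 (0.967). Clec4a3 was closest to H2-DMa (0.956), Pilra (0.951) and Clec4a2 (0.948). Clec4a1 reached 0.822 with Zfp429, 0.81 with Pcca and 0.801 with Zfp809.

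Other C-type lectin genes gave 19 tested of 27 listed. In 12-week CD11b-low knockout against wild-type cells 1 rose and 1 fell, with a list median of 0.55. Clec5a, which encodes the DAP12-coupled receptor MDL-1, rose from 102 ± 31.2 to 250 ± 60.1 CPM (log2 difference 1.29, SE 0.26, adjusted p = 0.0116). Clec4b1, a gene of the Clec4 cluster, fell from 291 ± 77.0 to 120 ± 19.5 CPM (log2 difference -1.28, SE 0.23, adjusted p = 0.00469). In CD11b-high knockout against wild-type cells 8 rose and 2 fell, among them Mgl2 (6.20), Cd209a (4.41), Clec4b1 (-2.29) and Cd209d. Cd209d had no counts in 12-week wild-type cells and averaged 0.685 CPM in CD11b-high cells, so its fitted difference gives no size. Mgl2 reached 29.2 ± 29.3 CPM in CD11b-high cells. With age 4 rose and 3 fell in wild-type cells and 5 rose in the knockout. Clec1b, the CLEC-2 gene near Clec7a, rose from 12.8 ± 7.31 to 123 ± 9.16 CPM in wild-type and from 18.6 ± 3.95 to 211 ± 68.2 CPM in knockout cells (log2 differences 3.28 and 3.50). Of 16 listed genes near the members, 12 were tested. Beyond Clec4b1, the call at 12 weeks in CD11b-low cells was Klrb1b at 1.07 (adjusted p = 0.0271).

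Genes of the signalling route below the activating receptors were mostly uncalled. Of 28 listed adaptors, kinases and regulators, 27 were tested, and 0 were called in either direction between genotypes at 12 weeks, with a median of 0.01. Their most abundant members were the adaptor genes Tyrobp (4173 ± 1299 CPM in knockout, 6508 ± 2580 in wild-type cells) and Fcer1g (3242 ± 982 against 4130 ± 1613 CPM). In CD11b-high knockout against wild-type cells 1 gene, Malt1, a protease of the Card9 complex, rose by a log2 difference of 1.78 (SE 0.34, adjusted p = 0.00219), from 6.43 ± 3.07 to 22.1 ± 0.739 CPM. With age in wild-type cells 3 rose and 3 fell, led by Tyrobp (1.63), Hcst (1.42), Dab2 (-1.34) and Fcer1g (1.16). In the knockout Nfatc1 alone was called with age, at -0.91. Of 5 phosphatase genes that act with ITIM receptors, the one call was Inpp5d with age in wild-type cells, at -1.19 (adjusted p = 0.00971).

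Cytokine and other genes known to be induced through these receptors were listed as 22, of which 18 were tested. Between genotypes at 12 weeks 4 rose and none fell, with a median of 0.43. They were Cxcl3 (log2 difference 3.09, adjusted p = 0.00288), Ccl4 (2.63, 0.00749), Ccl3 (2.29, 0.0288) and Il1a (2.05, 0.00438), which encode neutrophil- and monocyte-attracting chemokines and interleukin-1 alpha. Against wild-type cells 8 rose in CD11b-high knockout cells, led by Csf1 (6.60) and Ccl4 (6.20). Between CD11b-high and CD11b-low knockout cells Csf1 (3.91) and Ccl4 (3.57) rose. With age 6 rose in the knockout, and in wild-type cells Nlrp3 fell by 1.02 on the log2 scale. Tnf and Il6 did not pass in any comparison, and in 12-week CD11b-low cells Tnf averaged 38.9 ± 43.7 CPM in wild-type mice against 52.5 ± 44.0 CPM in the knockout.

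Markers of other cells moved with the same groups. Neutrophil markers summed to 101 to 125 CPM in wild-type, 184 to 235 in CD11b-low knockout and 394 to 557 in CD11b-high knockout cells at 12 weeks. Of 10 tested of 15, 2 rose between genotypes (Il1r2 and S100a8) and 6 between CD11b-high knockout and wild-type cells. Ly6g had no counts, and Elane and Mpo averaged below 0.1 CPM in every group. T and NK cell markers summed to 3.2 to 8.12, 44.4 to 128 and 38.4 to 98.7 CPM in those 3 groups, with 6 and 8 of 12 called higher. Dendritic cell markers summed to 109 to 155, 155 to 222 and 257 to 760 CPM, with 1 and 9 of 15 called higher, and Cd209a stands in both that list and the lectin list. Of 15 monocyte markers 2 and 5 were called higher, among them Ly6c2, at 0.196 ± 0.0908, 1.06 ± 0.384 and 3.15 ± 1.44 CPM in those groups. Eosinophil markers summed to 132 to 193, 269 to 717 and 380 to 1047 CPM, nearly all from Ear6 and Siglece, while Epx and Prg3 had no counts. Of 4 tested of 8, 1 was called higher between genotypes (Ear6, 4.72), and 3 were higher (Ear6 at 5.61, Alox15 and Prg2) and 1 lower (Siglece, -1.31) between CD11b-high knockout and wild-type cells. Of 20 alveolar macrophage markers, 1 was higher and 3 lower between genotypes, the latter Fabp1 (-1.47), Ear1 (-1.36) and Ear2 (-1.22). Between CD11b-high knockout and wild-type cells 3 were higher, among them Bhlhe41 (3.15). The 6 lower ones included Fabp1 (-2.7), Ear1 (-2.33) and Ear2 (-2.13). Erythroid markers summed to 494 to 1356 CPM in 12-week wild-type and 68.0 to 123 CPM in CD11b-low knockout cells, with 4 of 7 called lower in the knockout, and 5 of 7 were lower at 4 weeks too. B cell markers had 1 of 7 called higher (Blk) and lung epithelial markers 1 of 9 called lower. Several of the receptors are also made by neutrophils, monocytes and dendritic cells, and the part of these cells in the lectin results was not tested. At 4 weeks none of the other lists in this paragraph had a called gene between genotypes.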

How the data were processed

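The authors deposited raw gene counts for each library. STAR (alignment) and featureCounts of Subread (counting) are the tools named, per the submitters' processing notes; versions, genome build and strand setting are not given in the sources used here, so counts of overlapping genes are uncertain. After 270 repeated rows were dropped, 40510 genes remained, and 99.4% matched GENCODE M21. In edgeR 4.0.16 (R 4.3.3), filterByExpr (minimum count 10, minimum total 15) kept 13284 genes, TMM scaled the libraries, and 1 robust quasi-likelihood model with a coefficient for each group took in the 15 libraries (10 residual degrees of freedom). Tests were two-sided and adjusted by Benjamini and Hochberg over all tested genes at 0.05. They were also run on simulated counts whose spread was set by gene abundance alone. That run holds no gene-specific spread or outlying libraries, so it does not cover calls that rest on a single library. Its outcome is not given here, and no statement above rests on it. Summed marker CPM is per library total without TMM.

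The members and gene lists were chosen with earlier results of these data known. Named were all members, of each list up to 4 called genes with the largest difference (or the 2 most abundant), Cybb, the sort markers, and for each member the 3 genes with the highest correlation. Replicates are pools of mice, and p-values measure the spread between pools.

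Same-numbered CD11b-high and CD11b-low knockout libraries of 12 weeks deviated together (r = 0.429, 0.353 and 0.113 over genes). Same-numbered CD11b-low knockout and wild-type libraries of 12 weeks, which cannot share mice, had r = 0.364, 0.085 and 0.205. These values therefore do not establish a pairing by number, and the comparisons of same-numbered libraries assume it. Alternatives were DESeq2 1.42.0, limma 3.58.1 voom, a fit of the compared groups only, RLE factors, no filter on low counts, a replicate block, each library left out and, chosen after seeing the data, scaling by library totals.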

Additional observations from a re-analysis of the deposited data

How the results depend on the processing

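Members called between genotypes at 12 weeks numbered 2, which became 0 with the compared groups only, 1 without the filter on low counts and 1 to 2 with a library left out. CD11b-high against CD11b-low knockout cells gave 0, and 1 with DESeq2. CD11b-high knockout against wild-type cells gave 7, and 2 with the compared groups only and 5 to 7 with a library left out. With age in wild-type cells the count was 5, and 3 with the compared groups only, with library totals or without the filter, and 3 to 7 with a library left out. With age in the knockout it was 3, and 5 with the compared groups only, DESeq2 or RLE factors, and 2 to 5 with a library left out. The interaction gave 0, and 1 with DESeq2. The replicate block, also in the pairing inside the 12-week knockout, called 0 members there, and of the other member calls it ended those of Clec12a between CD11b-high knockout and wild-type cells (-0.67, adjusted p = 0.0599) and of Clec4n with age in the knockout (0.78, adjusted p = 0.0516), and it changed no other member call. Signs turned in values near 0 that no test called. For Clec4n at 4 weeks the log2 difference was 0.00 with the compared groups only and with limma voom, 0.05 with library totals and 0.01 without the filter. Clec4a1 with age was -0.22 in wild-type cells with library totals, and in the knockout -0.26 with library totals and -0.01 with limma voom or the replicate block. In the interaction Clec4a1 was -0.04 with library totals and -0.03 with limma voom or the replicate block. Clec4a2 and Clec4a3 with age in the knockout were -0.24 and -0.22 with library totals. With a library left out, Clec4a1 ranged from -0.58 to 0.17 between genotypes at 12 weeks, -0.52 to 0.17 at 4 weeks, -1.25 to 0.01 between CD11b classes, -0.36 to 0.43 with age in wild-type and -0.31 to 0.33 in knockout cells, and -0.39 to 0.41 in the interaction. Clec12a ranged from -0.32 to 0.01 at 12 weeks. At 4 weeks Clec7a ranged from -0.25 to 0.06, Clec4n from -0.09 to 0.12, Clec4e from -0.12 to 0.31, Clec4d from -0.12 to 0.22 and Clec4a3 from -0.08 to 0.09. Depth was lowest for Clec4a1, with 68 to 393 counts per library; leaving out a library leaves 2 in its group.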
